A study of Mus musculus with 4 samples.

Results

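The plasminogen activator system was followed through 6 genes of the 32285 features in the count matrices: the activators Plau and Plat, the urokinase receptor Plaur, the inhibitor Serpine2, and Anxa2 and S100a10, whose products form a cell surface complex. The genes were taken by symbol, and each symbol matched 1 feature. Plasminogen activators cut the zymogen plasminogen into plasmin, a protease that dissolves fibrin and cleaves other matrix proteins. Urokinase (Plau) acts while bound to its receptor, tissue-type activator (Plat) acts mostly on fibrin or at cell surfaces, and serpins trap both activators. The annexin A2 and S100A10 complex offers plasminogen and tissue-type activator a shared binding site. In infarcted hearts of adult mice the system is known for its part in clearing dead tissue and in the entry of leukocytes and fibroblasts.

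RNA was captured with the Visium assay, which lays a tissue section over barcoded spots, reads the polyadenylated transcripts each spot takes up and counts unique molecular identifiers (UMIs). All 4 sections came from hearts of ICR mice whose left ventricular apex had been frozen with a cold probe held for 5 seconds at postnatal day 1. The hearts were taken 1, 4, 7 and 14 days later, here d1, d4, d7 and d14, when the animals were at postnatal days 2, 5, 8 and 15. Every day had 1 section of 10 µm, every heart was injured, and no allele or agent beyond the cryoinjury is labelled for any of them. Time after injury therefore ran together with age and with the individual heart in every comparison between days. No test between days was possible, and the intervals below are 95% intervals that cover counting error only.

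At d1, d4, d7 and d14, 445, 662, 774 and 1175 of the listed spots held at least 500 UMIs and were kept, with median depths of 7810, 7998, 8028 and 3770 UMIs. Levels are given as CPM, the UMIs of a gene per 1e6 UMIs pooled over spots, haemoglobin and mitochondrially encoded genes left out. The d7 section stood apart in sex-linked genes, with 1 UMI of Xist, a transcript of the inactive X chromosome, and 460 of the Y-linked Eif2s3y, against 158 to 341 and 0 UMIs in the other sections. The part of this difference in the d7 values was not tested. All 8 cardiomyocyte markers were detected in every section, all of which are labelled heart. The sections shared 247 spot barcodes, which name positions on the array and not cells.

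In each section, the 10% of kept spots in which 20 matrix genes (collagens, Fn1, Postn, Tnc and others, none of them one of the 6 genes) took the largest share of UMIs were called matrix-rich. They numbered 44, 66, 77 and 118 at d1, d4, d7 and d14, and the matrix genes took 1.56%, 3.82%, 4.67% and 2.58% of their UMIs, against 0.362%, 0.677%, 0.625% and 0.573% in the other spots. The last spot inside and the first outside held 1.1% and 1.09% at d1, 1.83% and 1.80% at d4, 1.5% and 1.45% at d7, and both 1.47% at d14. Positions of the spots were not used here, so matrix-rich is a property of the RNA of a spot, not a mapped wound. A spot covers several cells, so more cells of a type and more RNA per cell cannot be told apart.

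Markers of several cell types differed between matrix-rich and other spots. The 12 macrophage markers summed to 1267, 810, 756 and 1274 CPM in the matrix-rich spots of d1, d4, d7 and d14, against 195, 128, 175 and 413 CPM in other spots, with Cd163 at 0 in the matrix-rich spots of d4 and d7. The 6 fibroblast markers, all detected, summed to 739, 2114, 3685 and 3885 CPM, against 383, 825, 1095 and 1338 CPM. The 9 epicardial markers, all detected, summed to 338, 404, 168 and 224 CPM, against 72.7, 115, 91.2 and 41.6 CPM. The 9 mural markers, also all detected, summed to 1921, 3418, 1614 and 2335 CPM, against 1086, 1091, 1145 and 1697 CPM. The mural markers split, by the rule for single genes given below. Acta2, Tagln, Myh11 and Cnn1 were higher in matrix-rich spots at d4 and d7, while Kcnj8 and Abcc9 were lower on both days and Rgs5 was lower at d7. The 10 neutrophil markers, of which 8, 6, 3 and 8 were detected in matrix-rich spots, summed to 706, 18.7, 10.6 and 173 CPM, against 205, 46.7, 22.4 and 47.3 CPM. The defining marker Ly6g was at 0 in all 4 matrix-rich pools and also in the other spots of d1, d4 and d7. The 4 endocardial markers, all detected, summed to 197, 258, 215 and 470 CPM, against 183, 88.2, 42.8 and 125 CPM. The 4 atrial markers, of which Bmp10 was at 0 in the matrix-rich spots of d1, d7 and d14 and Myl7 in those of d14, summed to 55.7, 230.2, 221 and 79.9 CPM, against 87.6, 91.4, 23.1 and 10.3 CPM. The 4 adipocyte markers, all at 0 in the matrix-rich spots of d1 and d4, reached 8.52 CPM at d7 and 135 CPM at d14, against 0.196 and 1.55 CPM. The 8 cardiomyocyte markers ran from 28140 to 54831 CPM in matrix-rich and from 64051 to 91812 CPM in other spots. The part of these cell types in the results below was not tested.

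The 6 genes lie on different chromosomes in GRCm38 (mm10). Plau spans chr14:20836660-20843385 on the plus strand, Plat chr8:22757727-22782844 (plus), Plaur chr7:24462484-24475968 (plus), Serpine2 chr1:79794197-79861180 (minus), Anxa2 chr9:69453620-69491795 (plus) and S100a10 chr3:93555080-93564643 (plus), all protein-coding in GENCODE vM21. Anxa2 also contains Mir3109 on its own strand and the antisense transcript Gm16144, and whether counting used strand is not given in the sources used here. The 250 bases before the RefSeq start site are shown for Plaur, Serpine2 and Anxa2, the only ones of the 6 genes for which a RefSeq promoter was found. These genes were higher in matrix-rich spots at d1, d4 and d7, as was S100a10. The bases run 5′ to 3′ on the strand of the gene (RefSeq, GRCm38.p6), with capitals marking matches to the AP-1 motif TGANTCA or to TATAAA.
Plaur promoter, chr7:24462233-24462482 (plus): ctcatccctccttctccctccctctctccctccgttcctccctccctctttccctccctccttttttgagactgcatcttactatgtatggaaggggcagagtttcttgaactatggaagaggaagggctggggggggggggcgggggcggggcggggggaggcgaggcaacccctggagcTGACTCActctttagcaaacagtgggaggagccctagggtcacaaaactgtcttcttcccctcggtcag
Serpine2 promoter, chr1:79858666-79858915 (minus): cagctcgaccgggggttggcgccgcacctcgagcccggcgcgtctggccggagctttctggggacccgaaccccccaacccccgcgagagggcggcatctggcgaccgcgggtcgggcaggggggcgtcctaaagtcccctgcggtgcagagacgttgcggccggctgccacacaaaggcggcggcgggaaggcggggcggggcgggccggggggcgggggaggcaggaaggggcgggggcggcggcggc
Anxa2 promoter, chr9:69453433-69453682 (plus): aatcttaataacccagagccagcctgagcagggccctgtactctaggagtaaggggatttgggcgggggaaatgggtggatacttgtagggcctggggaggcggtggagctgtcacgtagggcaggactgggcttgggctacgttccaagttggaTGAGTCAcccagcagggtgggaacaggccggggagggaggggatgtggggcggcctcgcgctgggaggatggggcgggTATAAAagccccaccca

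The search covered both strands of each promoter from 250 bases before to 50 after the start site. Plaur held TGACTCA from position -69 relative to the start site and Anxa2 held TGAGTCA from position -95, while the Serpine2 window held no TGANTCA, a motif present in 7.81% of 32851 mouse promoters. Anxa2 also held TATAAA from position -17, as 13.6% of all promoters did somewhere in the window. The letters GGGCGG occurred 3 times in Plaur, 6 times in Serpine2 and 3 times in Anxa2, and at least once in 35.7% of all promoters. The Serpine2 window was 77.7% G and C, above 97.9% of all promoters, whose median was 52.7%, while Plaur stood at 59.3% and Anxa2 at 63.7%. These are matches of letters and not tested sites. The Serpine2 window lies inside the GENCODE gene span, because the annotated starts differ, and the GENCODE start of Anxa2 lies inside the Anxa2 window.

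Within the sections, most measured members of the system were higher in matrix-rich than in other spots at d1, d4 and d7, and 2 of 4 were at d14, Serpine2 and Anxa2. A gene was measured with at least 20 UMIs over both pools and counted as higher or lower when the ratio of its CPM was at least 2 or at most 0.5 and the interval of the ratio did not hold 1. By this rule 5 of 5 measured members were higher at d1, where 9.31% of 10001 genes were. At d4 it was 4 of 5, where 10.7% of 11592 genes were higher, at d7 5 of 5, where 11.6% of 11189 genes were, and at d14 2 of 4, where 11.9% of 10556 genes were. These counts depend on the minimum of UMIs. Plaur met it at d1 only because 11 UMIs of the matrix-rich spots joined 17 of the other spots. At d14 Plaur was left out, with 2 and 17 UMIs and a ratio of 1.04. No member was lower in matrix-rich spots on any day, where 2.42%, 6.62%, 3.34% and 2.08% of genes were. The members' median log2 ratios were 1.70, 1.52, 1.49 and 1.31, against 0.13, 0.09, 0.19 and 0.22 for all measured genes. With TMM scaling, which moved the medians of all genes to -0.13, -0.09, -0.11 and -0.12, none of these calls was lost. With the top 20% of spots taken as matrix-rich, 2 of 5 members, Serpine2 and Anxa2, remained higher at d7. The share of higher genes among all calls was 79.4%, 61.9%, 77.7% and 85.1% and became 51.0%, 46.4%, 45.8% and 46.2% under that scaling.

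**Figure D1:**
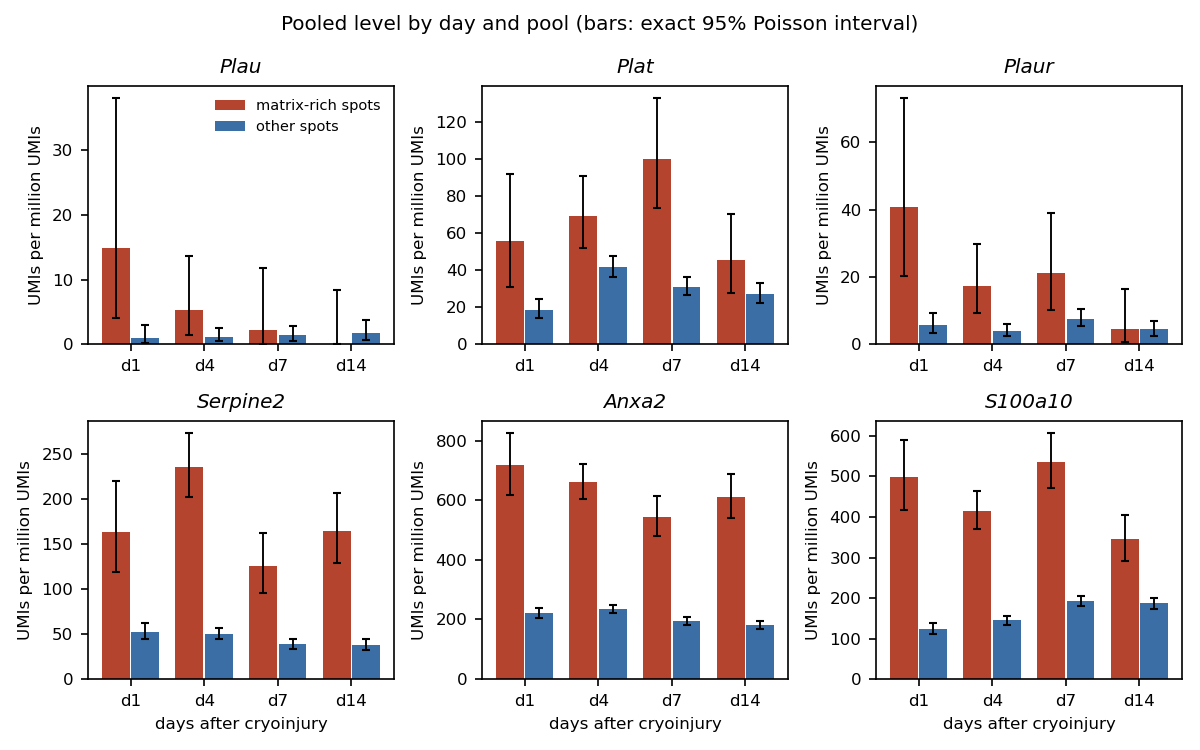
Level of each gene (UMIs per 1e6 UMIs, linear axis from 0) in matrix-rich (red, left) and other spots (blue, right) of each section. Bars are pooled values and whiskers exact 95% Poisson intervals. Serpine2 and Anxa2 stand higher in matrix-rich spots on all 4 days, and Plaur has bars of nearly equal height at d14.

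**Figure D2:**
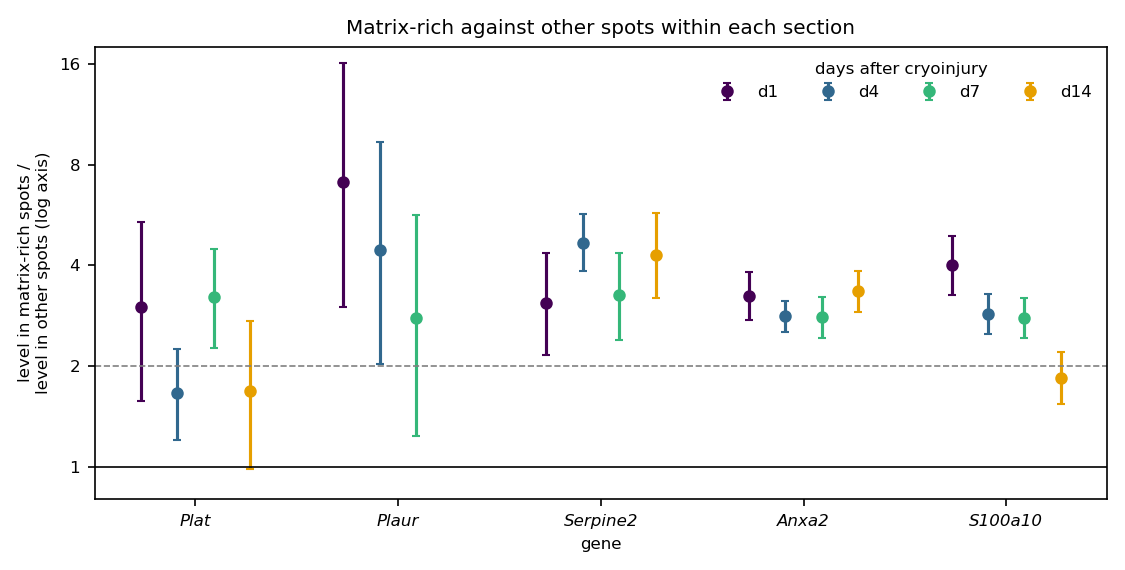
Ratio of the level in matrix-rich spots to that in other spots (log axis) for each gene and day with at least 20 UMIs. Points carry exact 95% intervals for counting error, the solid line marks 1 and the dashed line 2. All points lie above 1, and those of Plat at d4 and d14 and of S100a10 at d14 lie below 2.

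Plat, the tissue-type activator that vessel walls are known to release, was the only member whose level over a whole section passed the rule between days. It had 21.7 CPM at d1 (70 UMIs), 45.5 at d4 (266 UMIs), 37.0 at d7 (206 UMIs) and 29.0 at d14 (125 UMIs). The d4 level was 2.10-fold that of d1 (1.61 to 2.77), which is 1 of 5 measured members higher where 8.30% of 12200 genes were, and none was lower where 2.26% were. This ratio fell under 2 with TMM scaling (1.84), as a mean over spots (1.85) and without the spots richest in atrial markers (1.98). At d7 the ratio to d1 was 1.70 (1.29 to 2.27) and at d14 it was 1.34 (0.991 to 1.82), and no member was higher or lower there. Of all measured genes, 5.10% were higher and 4.13% lower at d7, and 8.69% were higher and 8.52% lower at d14.

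Outside the matrix-rich pool Plat passed the rule between d4 and d1 as well. Those other spots had 18.6, 42.0, 31.2 and 27.2 CPM in order of time, and d4 was 2.26-fold d1 (1.67 to 3.09), again as 1 of 5 measured members, where 7.32% of genes were higher and 2.01% lower (1.99 with TMM scaling and 1.87 as a mean over spots). Matrix-rich spots had 55.7, 69.6, 100.1 and 45.6 CPM on the same days, from 15, 52, 47 and 20 UMIs, and their d4 level was 1.25-fold that of d1 (0.692 to 2.39). The intervals of these d4 ratios overlap, and their difference was not tested. Within sections, Plat was higher in matrix-rich spots at d1, by 2.99-fold (1.57 to 5.38), and at d7, by 3.21-fold (2.27 to 4.47). At d4 and d14 the ratios were 1.66 (1.2 to 2.25) and 1.68 (0.987 to 2.73). The d4 ratio passed the rule for the top 5% of spots (2.31, 1.57 to 3.30) and without the spots richest in epicardial markers (2.16, 1.48 to 3.07), and the d7 ratio was 1.91 (1.38 to 2.59) with the top 20%. The d1 ratio rested on 15 UMIs and was 1.4 (0.367 to 3.79) without the spots richest in epicardial markers and 1.79 as a mean over spots. Endothelial markers summed to 843, 855, 905 and 1271 CPM in matrix-rich spots, against 755, 1127, 1052 and 1166 CPM in other spots, all 9 detected in each, and the endocardial sums are given above.

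Plau, the urokinase gene, was near the limit of detection. It had 7, 10, 8 and 7 UMIs at d1, d4, d7 and d14, or 2.17, 1.71, 1.44 and 1.63 CPM, and no spot held more than 2. Matrix-rich spots held 4, 4, 1 and 0 of these UMIs and the other spots 3, 6, 7 and 7. At d1 this made 14.9 CPM (4.05 to 38.1) in matrix-rich spots and 1.02 CPM (0.209 to 2.97) in other spots. Over both pools these 7 UMIs, a ratio of 14.6 (2.48 to 99.9), stayed below the minimum of 20 UMIs for a call, and so did every other comparison of Plau. A count of 0 in the matrix-rich spots of d14 allows up to 6.85 CPM (3 counts), above the 1.81 CPM of the other spots, so a difference was not detectable at this depth.

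Plaur, which encodes the receptor that holds urokinase at the surface of monocytes, neutrophils and migrating cells, had its highest matrix-rich level at d1. Matrix-rich spots had 40.9 CPM (20.4 to 73.1) at d1, from 11 UMIs, and 17.4, 21.3 and 4.56 CPM on the later days, from 13, 10 and 2 UMIs. The other spots had 5.75, 3.92, 7.65 and 4.40 CPM. The matrix-rich pool was thus 7.10-fold (3.01 to 16.1) higher at d1, 4.44-fold (2.03 to 9.37) at d4 and 2.78-fold (1.24 to 5.68) at d7, and at d14 the 19 UMIs of both pools, a ratio of 1.04 (0.116 to 4.37), were below the minimum for a call. The d1 ratio was 3.8 (0.957 to 11) for the top 5% of spots and 3.69 (0.930 to 10.7) with 1 matrix share for all sections, and the d4 ratio was 2.72 (0.820 to 7.13) for the top 5%. The d7 ratio was 1.22 (0.542 to 2.48) with the top 20% of spots.

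Over time within the matrix-rich spots Plaur was 0.426-fold d1 (0.176 to 1.05) at d4 and 0.521-fold (0.198 to 1.35) at d7, both intervals holding 1. At d14 the 2 UMIs were 0.112-fold d1 (0.0120 to 0.512), from 13 UMIs in all, too few for a call. Over whole sections it had 8.68, 5.64, 8.80 and 4.41 CPM from 28, 33, 49 and 19 UMIs. The d14 level was 0.508-fold that of d1 (0.268 to 0.943), just outside the rule, and inside it, at 0.489, with CPM over all genes. Of the Plaur UMIs of a section, 39.3%, 39.4%, 20.4% and 10.5% in order of time came from its matrix-rich spots. Those spots held 8.35%, 12.8%, 8.43% and 10.2% of the UMIs of all genes in the denominator.

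Serpine2, which encodes protease nexin-1, an inhibitor of both activators, of plasmin and of thrombin, was 3.10-fold to 4.67-fold higher in matrix-rich spots. Those spots had 163, 236, 126 and 164 CPM in order of time (44, 176, 59 and 72 UMIs), against 52.8, 50.4, 38.6 and 38.3 CPM in other spots. The ratios were 3.10 (2.16 to 4.35), 4.67 (3.84 to 5.68), 3.25 (2.39 to 4.37) and 4.29 (3.19 to 5.73), and none fell below 2 under any of the 15 alternatives. At d4 the matrix-rich spots held 12.8% of the UMIs of the section and 40.6% of its Serpine2 UMIs. Over whole sections Serpine2 had 62.0, 74.1, 46.0 and 51.1 CPM, and the d4, d7 and d14 levels were 1.19 (1.01 to 1.42), 0.741 (0.614 to 0.896) and 0.824 (0.677 to 1.00) times that of d1. None of these passed the rule.

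Set against Plat, the inhibitor was not in fixed proportion. There were 3.38 Serpine2 UMIs per Plat UMI (2.47 to 4.71) in the matrix-rich spots of d4 and 1.2 (0.998 to 1.45) in its other spots. At d14 the values were 3.60 (2.17 to 6.24) and 1.41 (1.09 to 1.83), at d7 1.26 (0.841 to 1.88) and 1.24 (1.00 to 1.54), and at d1 2.93 (1.60 to 5.67) and 2.84 (2.07 to 3.93). The intervals of the pools lay apart at d4 and d14 and overlapped at d1 and d7. Such a ratio compares pools, since capture differs between genes and the ratio of UMIs is not a ratio of transcripts.

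Anxa2, the annexin partner in the plasminogen-binding complex, was higher in matrix-rich spots on every day. Matrix-rich spots had 717, 662, 545 and 612 CPM in order of time, against 221, 235, 195 and 183 CPM in other spots. The ratios were 3.25 (2.75 to 3.82), 2.82 (2.53 to 3.13), 2.80 (2.43 to 3.22) and 3.35 (2.90 to 3.86), all counted as higher. Between days it stayed within a narrow range, with 262, 289.6, 224 and 226 CPM over whole sections. Its ratios to d1 lay between 0.855 and 1.11, and none passed the rule. After thinning spots to 2500 UMIs, 85.0%, 73.8%, 59.2% and 68.3% of matrix-rich spots held an Anxa2 UMI, against 37.8%, 38.4%, 33.2% and 33.6% of other spots. Shallower spots, 40, 3, 3 and 131 of the kept spots in order of time, were left out of these shares.

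S100a10, which encodes the calcium-insensitive S100 protein that pairs with annexin A2, differed from its partner over time. Matrix-rich spots had 498, 415, 536 and 345 CPM at d1, d4, d7 and d14, and other spots had 125, 145, 192 and 187 CPM. Inside sections the ratios were 4.00 (3.26 to 4.88), 2.87 (2.50 to 3.28), 2.79 (2.42 to 3.21) and 1.84 (1.54 to 2.20), and the last did not pass the rule (2.45 for the top 5% of spots). In the other spots the S100a10 levels of d7 and d14 were 1.55-fold (1.37 to 1.75) and 1.5-fold (1.32 to 1.71) that of d1. In matrix-rich spots it was 0.692-fold d1 (0.545 to 0.880) at d14, and 1.14-fold (0.814 to 1.62) when only the top 5% of spots counted as matrix-rich. No member was higher or lower in matrix-rich spots between days. There 8.41%, 7.05% and 9.86% of genes were higher at d4, d7 and d14 than at d1, and 4.58%, 5.39% and 7.21% were lower. In the other spots none but Plat at d4 was, where 5.06% and 8.50% of genes were higher and 4.38% and 8.74% lower at d7 and d14.

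The number of S100a10 UMIs per Anxa2 UMI, which does not depend on depth or scaling, set d7 and d14 apart from d1 and d4 in the other spots. There it was 0.564 (0.495 to 0.642) at d1 and 0.616 (0.561 to 0.676) at d4, and then 0.989 (0.904 to 1.08) and 1.02 (0.922 to 1.14). Matrix-rich spots had 0.694 (0.553 to 0.870), 0.626 (0.542 to 0.723), 0.984 (0.824 to 1.18) and 0.563 (0.458 to 0.690). The pools of d1, d4 and d7 had overlapping intervals, and those of d14 lay apart. Under the other definitions of spots and pools, the matrix-rich d14 value ran from 0.538 to 0.694 and the other-spot d14 value from 0.952 to 1.09. The d14 spots were the shallowest and 1 heart stands behind each day, so an effect of the individual heart cannot be told apart from one of time.

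**Figure D3:**
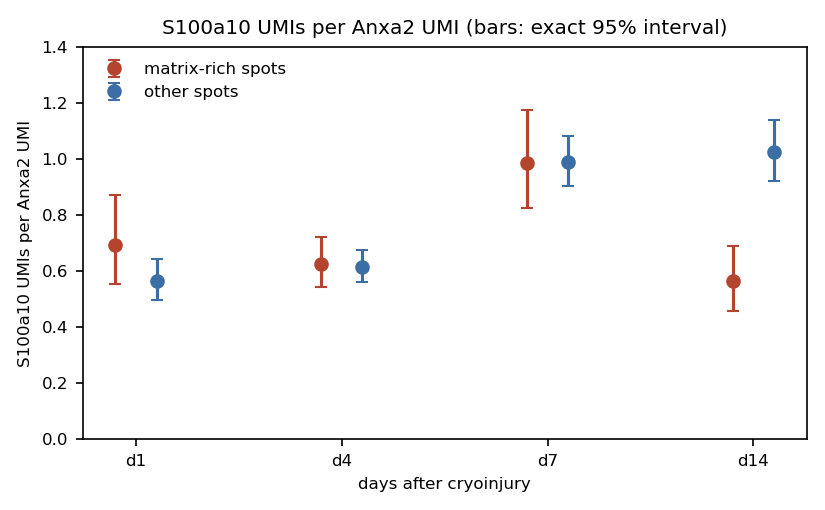
S100a10 UMIs per Anxa2 UMI in matrix-rich (red, left) and other spots (blue, right) of each section, with exact 95% intervals for counting error. The d7 points are near 1 in both pools, and at d14 the matrix-rich point is at 0.563 while that of the other spots is at 1.02.

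The spots of each section were also split into 5 equal groups by matrix share. Anxa2, Serpine2, S100a10 and Plat had their highest level in the top group on every day. For each of them the largest step between neighbouring groups was the last one. Anxa2 had 578, 525, 403 and 453 CPM there at d1, d4, d7 and d14, against 171, 222, 156 and 165 CPM in the lowest group. Serpine2 had 120.3, 168, 91.4 and 112 CPM in the top group, against 46.3, 32.4, 29.4 and 28.5 CPM in the lowest. Between the lowest and the fourth group at d4, Anxa2 stayed between 201 and 228 CPM. S100a10 climbed at each of the 4 steps at d1 (81.9, 106, 118, 149 and 352 CPM) and at d7 (167, 174, 204, 224 and 364 CPM). Anxa2 did so at d7 (156, 168, 188, 239 and 403 CPM), and Serpine2 at d7 (29.4, 32.4, 35.3, 49.7 and 91.4 CPM) and at d14 (28.5, 30.6, 31.6, 51.9 and 112 CPM). Plat had 38.9, 64.6, 61.3 and 39.4 CPM in the top group, against 26.3, 32.4, 30.3 and 23.6 CPM in the lowest. Below the top group Plat did not follow the share in order. At d1 its lowest level, 9.32 CPM, was in the middle group. Serpine2 at d1, S100a10 at d4 and Anxa2 at d14 did not climb at each step either.

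**Figure D4:**
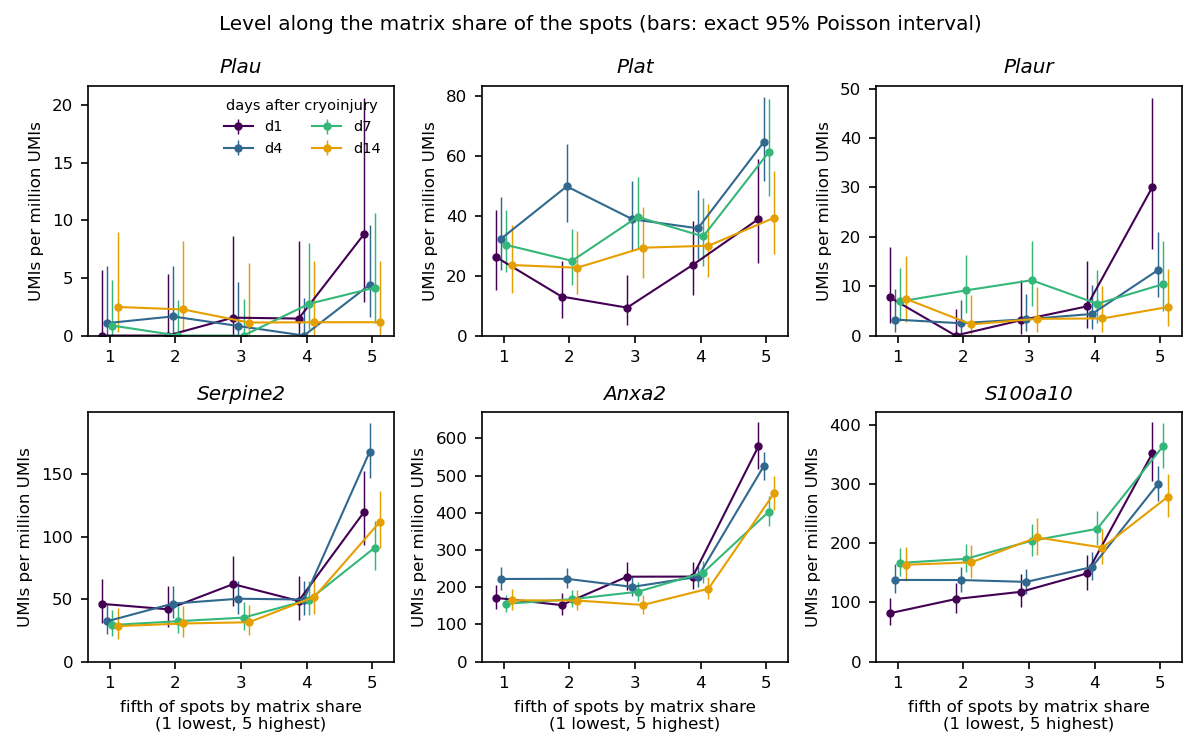
Level of each gene (UMIs per 1e6 UMIs) in 5 equal groups of spots ordered by matrix share, 1 line per day, with exact 95% Poisson intervals. Plat, Serpine2, Anxa2 and S100a10 are highest in the top group on all 4 days.

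Grouping the spots by expression with the members, the pathway genes and the matrix genes left out gave 25 clusters, 5 to 8 per section, which are described by their leading genes. At d1 the highest Anxa2, S100a10, Serpine2, Plat and Plaur levels (773, 498, 147, 51.1 and 47.9 CPM) were all in a cluster of 50 spots (74% matrix-rich) led by Il1rn, Spp1, Gpnmb and Arg1, genes of activated macrophages. Its macrophage and neutrophil markers summed to 1552 and 804 CPM, against 103 to 364 and 103 to 252 CPM in the other d1 clusters. Its fibroblast (702 CPM) and epicardial (284 CPM) sums were also the highest of d1. At d4 a cluster of 47 spots (100% matrix-rich) led by Ccn5, Actg2, Col8a1 and Tagln, genes of matrix-making and contractile cells, held the highest levels of Anxa2 (700.5 CPM), S100a10 (476), Serpine2 (244), Plat (81.8) and Plaur (19.6). A second d4 cluster of 31 spots, led by the stressed-cardiomyocyte genes Nppa and Acta1, had 458 CPM of Anxa2 and 114 of Serpine2. In this cluster 16.1% of spots were matrix-rich, the matrix genes took 1.27% of UMIs and the median depth was 18269 UMIs. Its S100a10 level was 185 CPM, and the 6 remaining d4 clusters had 64.3 to 166 CPM.

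At d7 a cluster of 52 spots (94.2% matrix-rich) led by Wfdc18, Myh3, Osr1 and Ccn5 had 632 CPM of Anxa2, 629 of S100a10, 146 of Serpine2 and 129 of Plat. Skeletal muscle markers ran with it: they summed to 326 CPM in the matrix-rich spots of d7, against 12.2 CPM in the other spots. Leaving out every spot with a skeletal muscle UMI cost no call of a member in any comparison. The lowest Anxa2 and S100a10 levels of d7, 107 and 121 CPM, were in a cluster of 54 spots led by the interferon-induced Iigp1 and the class II gene H2-Ab1. At d14 the highest Anxa2 (424 CPM), S100a10 (294), Serpine2 (120) and Plat (37.6) levels were in a cluster of 209 spots led by Gpnmb, Lgals3 and Thbs4, of which 47.4% were matrix-rich, and a cluster of 331 spots led by Strit1 had a like Plat level of 36.4 CPM.

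**Figure D5:**
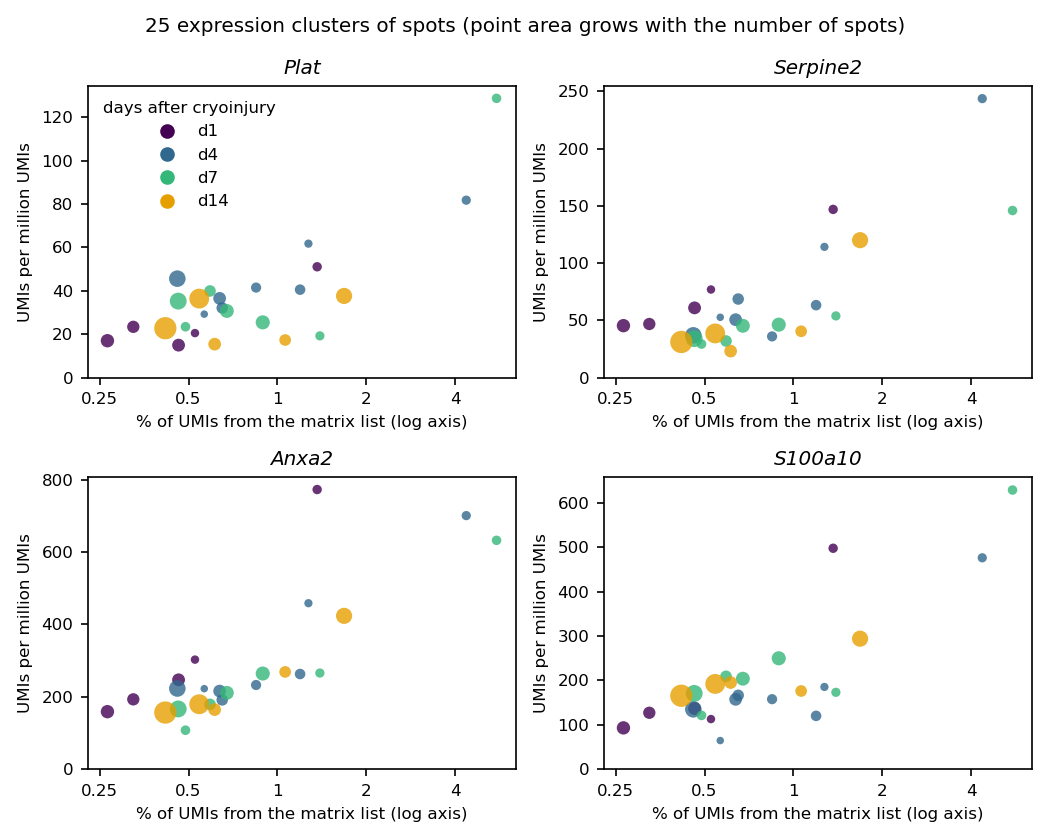
Level of 4 genes (UMIs per 1e6 UMIs) against the share of UMIs from the matrix list (log axis) in the 25 clusters, coloured by day, with point area growing with the number of spots. The clusters with the largest matrix shares at d4 and d7 are high for all 4 genes, and the d1 cluster with 773 CPM of Anxa2 has a matrix share of 1.36%.

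Over these 25 pools, which share libraries and depth within a day, the genes closest to each member were ranked by Pearson's r of log2(CPM + 5) among 6459 genes of at least 20 CPM. Anxa2 was nearest to Anxa1 (0.944), Timp1 (0.939), Serpine2 (0.916), Fhl1 (0.907) and Erp29 (0.906). Serpine2 was nearest to Rpn2 (0.923), Anxa2 (0.916), Erp29 (0.914), Timp1 (0.910) and Anxa1 (0.899), so the inhibitor and the annexin stood among each other's 5 closest genes. S100a10 was nearest to Arhgdia (0.892), S100a6 (0.887), Emp3 (0.878), Serpinb6a (0.872) and Ccn2 (0.849), and its partner Anxa2 came at rank 110 (0.725). Plat had lower values throughout, with Myo9b (0.832), Ltbp2 (0.828), Lgals1 (0.827), Dbn1 (0.826) and Cthrc1 (0.825), the last of the matrix list. Its level over all spots was 35.2 CPM, against 58.5 for Serpine2, 193 for S100a10 and 251 for Anxa2. The part of counting error in its lower values was not tested. Plau and Plaur stayed below 20 CPM over all spots and were not ranked. Within sections, rho over single spots was taken in the 405, 659, 771 and 1044 spots of d1, d4, d7 and d14 deep enough for thinning. It was 0.022, 0.165, 0.013 and 0.042 for Anxa2 with Serpine2, and 0.212, 0.159, 0.158 and 0.048 for Anxa2 with S100a10. Over spots S100a10 was thus closer to Anxa2 than Serpine2 was at d1 and d7, and the values were similar at d4 and d14. These correlations are descriptions and carry no test.

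The substrate and its plasma partners were nearly absent from the RNA of the sections. Plasminogen (Plg) had 2 UMIs over the 4 sections, the plasmin inhibitor Serpinf2 had 2, and the fibrinogen genes Fga, Fgb and Fgg and the carboxypeptidase Cpb2 had 0. These proteins are made in the liver and reach tissue with the blood. Among the other serpins that act on the activators, Serpinb2 had 1 UMI and Serpina5 had 0, while Serpini1 had 225. Serpini1 was higher at d14 than at d1 over whole sections and in other spots.

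Of 58 further genes of the pathway and its families, 21 of 41 measured were higher in matrix-rich spots at d1 and 0 lower, 22 of 43 and 1 at d4, 16 of 42 and 1 at d7, and 18 of 43 and 1 at d14. Of all measured genes, 9.31%, 10.7%, 11.6% and 11.9% were higher on these days and 2.42%, 6.62%, 3.34% and 2.08% lower. Their median log2 ratios were 1.12, 1.00, 0.67 and 0.78, beside the medians of all genes above. The clearance receptor gene Lrp1, the integrin gene Itgav, the protein C receptor gene Procr, Anxa1, S100a4, S100a6, S100a11 and the pigment epithelium serpin gene Serpinf1 were higher on all 4 days. Lrp1, whose product takes up activator and inhibitor complexes, had 282, 294, 264 and 475 CPM in matrix-rich spots, against 73.8, 72.0, 85.7 and 142 CPM in other spots. The collagen receptor gene Mrc2, whose product associates with the urokinase receptor, was higher at d4, d7 and d14, with ratios of 7.19 (5.79 to 8.92), 5.70 (4.40 to 7.34) and 3.59 (2.68 to 4.77). At d1 Mrc2 had 29.7 CPM in matrix-rich and 17.9 CPM in other spots. The other plasminogen receptor genes, Plgrkt and Eno1, did not pass the rule between matrix-rich and other spots in any section. The genes that were lower in matrix-rich spots were Vtn at d4 and d14 and F3 at d7.

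The S100 family separated in the same comparison. S100a6 was 8.37-fold (7.45 to 9.41) higher in matrix-rich spots at d1, 5.82-fold at d4, 2.52-fold at d7 and 3.73-fold at d14. S100a4 was 13.2-fold (8.71 to 20.02), 12.9-fold, 5.87-fold and 7.01-fold higher, and S100a1, S100a13 and S100a16 did not pass the rule on any day. Of the other annexins, Anxa1 was 5.46-fold (4.18 to 7.09), 4.15-fold, 2.81-fold and 4.66-fold higher. Anxa3 and Anxa5 were higher at d1, d4 and d7, Anxa4 at d1 and d14, Anxa7 at d1 and Anxa11 at d14. Only Anxa6 did not pass on any day.

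Between days, some of these genes passed the rule as well. Over whole sections 5 of 46 were higher and 4 lower at d4 against d1, where 8.30% of all measured genes were higher and 2.26% lower. At d7 it was 5 and 6 of 45, where 5.10% and 4.13% of all genes were, and at d14 8 and 4 of 45, where 8.69% and 8.52% were. Vtn, which encodes vitronectin, an adhesive plasma and matrix protein that also binds the urokinase receptor, had 2.17, 7.18, 12.4 and 47.9 CPM in order of time. At d14 it was 25.1 CPM in matrix-rich and 50.4 CPM in other spots. Serpinf1 had 9.61, 32.8, 30.9 and 97.8 CPM, and Mrc2 18.9, 59.4, 49.6 and 56.2 CPM, both higher than at d1 on every later day, as Serpinb9 was. Serpina3n, an acute-phase serpin, had 73.8, 0.513, 1.08 and 11.4 CPM and was lower on every later day. The transglutaminase gene F13a1, which crosslinks fibrin, was lower at d4 (6.16 CPM) and d7 (11.7 CPM) than at d1 (36.6 CPM), and at d1 it was 11-fold (7.52 to 16) higher in matrix-rich spots. Thrombomodulin (Thbd) had 87.3 CPM at d14 against 19.5 CPM at d1 and was 4.47-fold higher (3.42 to 5.94). Eno1 was lower at d14 than at d1 over whole sections, in matrix-rich spots and in other spots.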

How the data were processed

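The deposited matrices held raw UMI counts per gene and spot, whole numbers with no normalization by the authors, written by Space Ranger 1.3.0, per the file headers. The submitters' processing notes name build mm10 and Seurat 4.1.1, whose role is not given in the sources used here, nor is the rule by which spots were listed. The members and gene lists were chosen with earlier results of these data known.

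Spots with at least 500 UMIs were kept, which left out 3, 3, 2 and 3 spots at d1, d4, d7 and d14. Counts were pooled over spots and divided by their sum, from which haemoglobin genes and mitochondrially encoded genes had been taken out. CPM carried exact Poisson intervals, ratios of pools exact conditional binomial intervals and shares of spots exact Clopper-Pearson intervals, all at 95% and for counting error only. With 1 section per day no p-value was computed, and spots of a section were not treated as replicates. Ratios were computed for every gene with at least 20 UMIs over both pools, and the intervals were tested on simulated counts. Between days, whole sections, matrix-rich spots and other spots of d4, d7 and d14 were each set against d1. Clusters were made per section with Leiden (scanpy 1.11.5, igraph 0.11.9, resolution 0.8, 15 principal components, 15 neighbours, 2000 variable genes). The rule for named genes took all 6 members, pathway genes past the call rule, and per member the 5 genes of largest Pearson correlation over clusters of at least 50000 UMIs, with ribosomal protein and predicted genes left out. Pathway genes named although they did not pass the call rule were chosen after their values were seen. Alternatives were TMM factors (edgeR 4.0.16, R 4.3.3), CPM over all genes, other spot and gene minimums, means over spots (with the interval of the pooled counts), spots left out by skeletal muscle, atrial or epicardial markers, and other definitions of matrix-rich. For positions, Ensembl IDs were looked up in GENCODE vM21, which held 32235 of 32285 features. RefSeq promoters were found for 3 of the 6 members, and those of Plau, Plat and S100a10 were not used here. The pathway counts cover the whole list, of which 1 gene is not reported here by name.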

Additional observations from a re-analysis of the deposited data

Results flagged for a closer look

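S100a10 at d14 against d1 lay on opposite sides of 1 in the 2 pools of spots. In matrix-rich spots the ratio was 0.692 (0.545 to 0.880), with 345 CPM at d14 and 498 CPM at d1. In the other spots it was 1.5 (1.32 to 1.71), with 187 CPM at d14 and 125 CPM at d1. What drew attention was that the pools moved in opposite directions under the same contrast, each with an interval that did not hold 1. The difference was not tested, since each day had 1 section. Under the 15 alternatives the matrix-rich ratio ran from 0.591 to 1.14, the highest with the top 5% of spots, and the other-spot ratio from 1.3 to 1.61.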

How the results depend on the processing

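Of 63 member ratios, 855 values under the alternatives left 803 inside the interval of the reported value and 52 outside it, and no called ratio changed direction. Of the 264 values of the 18 called ratios, 13 lost the call, and 16 values of uncalled ratios gained one. Counts of members past the rule that moved by more than 1.5 times were as follows. Higher at d4 against d1 over whole sections, 1 member became 0 with TMM scaling, as a mean over spots and without the top atrial spots, and in other spots 1 became 0 with TMM scaling and as a mean over spots. Lower at d14 against d1 over whole sections, 0 became 1 (Plaur) with CPM over all genes, as a mean over spots and without the top atrial or the top epicardial spots. Higher in matrix-rich than in other spots at d7, 5 became 2 with the top 20% of spots. Within matrix-rich spots against d1, higher members went to 1 (Plat) at d4 without the top epicardial spots, and to 1 (Plat) at d7 without those spots, with the top 5% of spots and with the cluster of largest matrix share. Lower members there went to 1 (Plaur) at d4 with the top 20% and with that cluster, to 1 (Plaur) at d7 with the top 20%, and at d14 to 1 with a minimum of 20 CPM, with the top 20% and with that cluster, and to 2 with no minimum of UMIs. In other spots against d1, lower members went to 1 (Plaur) at d4 with 1 matrix share for all sections and higher members to 1 (Plaur) at d7 with the top 20%. Smaller changes came in the count of members higher in matrix-rich than in other spots. At d1, 5 became 4 as a mean over spots and without the top epicardial spots (Plat lost), and with the top 5% of spots and with 1 matrix share for all sections (Plaur lost), and 6 with no minimum of UMIs. At d4, 4 became 5 without the top epicardial spots (Plat gained) and 3 with a minimum of 20 CPM, and with the top 5% of spots Plat was gained and Plaur lost. At d14, 2 became 3 with the top 5% of spots (S100a10 gained). The causes were not tested. The ratio of S100a10 to Anxa2 UMIs was varied after its values had been seen. Among all genes, the share of higher calls at d4 against d1 was 63.4% with TMM scaling in place of 78.6% over whole sections and 62.4% in place of 78.5% in other spots. At d7 against d1 it was 44.9% with CPM over all genes in place of 55.3%, and 42.5% in place of 53.6% in other spots.

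No paired analysis was possible because each day had 1 section. The limits are that 1 heart stands behind each day, that no uninjured heart is labelled, that Plau and Plaur had 32 and 129 UMIs in all, and that d14 was the shallowest section, so small differences of these genes were not detectable.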
